A study of Mus musculus with 9 samples.

Results

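Osteoprotegerin, RANKL and M-CSF are the secreted or membrane proteins through which osteoblastic cells control the formation of osteoclasts, the cells that resorb bone. Their genes are Tnfrsf11b, Tnfsf11 and Csf1. Every probe set of the array whose platform annotation gave 1 of these symbols was taken, which gave 3 probe sets, 1 for each gene, of 12422 probe sets that are not controls and 8251 named genes. The probe sets were 102887_at for Tnfrsf11b, 93416_at for Tnfsf11 and 101450_at for Csf1. Of these, 2 were bright enough to be tested and that of Tnfsf11 was not.

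Mouse OB-6 cells, an osteoblastic line, were the source of the RNA, which was read on 9 arrays of short oligonucleotides with 1 colour. The cells had been given parathyroid hormone (PTH) for 0, 30 or 60 min, with 3 arrays per time, named replicates a, b and c. The dose is not given in the sources used here. The 0 min arrays are the basal level, and no arrays of cells kept for 30 or 60 min without the hormone were analysed here. Whether the replicates were separate cultures is not given in the sources used here, so each p-value here reflects variation among arrays that could be purely technical.

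RANKL, a ligand of the TNF family, binds its receptor RANK on osteoclast precursors and drives them to become osteoclasts. Osteoprotegerin is a secreted member of the TNF receptor family that binds RANKL and keeps it from RANK. M-CSF, the ligand of the receptor Csf1r, keeps the precursors alive and lets them multiply. PTH is known to raise RANKL and lower osteoprotegerin in osteoblastic cells, through cAMP signalling.

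Several osteoblastic markers were bright on all arrays, while Dmp1, an osteocyte gene, reached at most 64.7. Of 15 marker names 11 had a probe set, and 9 of these were tested. Col1a1 lay between 3083 and 6234, Bgn between 3992 and 6581 and Sparc between 2959 and 3905. Other markers of the list were dimmer, with Alpl between 227 and 338 and Ibsp between 38.2 and 119. Omd and Postn varied more between arrays, from 349 to 2336 and from 1180 to 3976. The probe set of Pth1r, the PTH receptor, lay between 6.70 and 41.6, and 0 of 9 arrays exceeded the intensity of 44.7 used as the filter. Phex, also in this list, lay below the filter on every array as well. At 60 against 0 min 1 of the tested markers was called higher and 2 lower. Of all tested probe sets, 4.35% were called higher and 8.73% lower. Of 13 haematopoietic and osteoclast markers 6 were tested. Bright on every array were Cd14, at 927 to 1424, Ctsk, the osteoclast protease cathepsin K, at 522 to 734, and Cd68, at 93.5 to 149.5. Ptprc, which marks blood cells, stayed at or below 18.1 and Calcr, the calcitonin receptor of osteoclasts, at or below 11.6. The summed intensity of the 13 was 1883 to 2351 at 60 min, against 1859 to 2107 at 0 min. Tested markers of other cells were 6 haematopoietic, 3 lymphocyte, 3 adipocyte, 1 chondrocyte and 0 endothelial, and 0 of them passed at 60 min. The summed intensity of 6 endothelial markers was 90.2 to 111 at 60 min, against 45.2 to 55.6 at 0 min. Each of these 6 probe sets lay below the filter on every array, so this sum is too dim to judge. That of 5 adipocyte markers was 620 to 692 at 60 min, against 571 to 610 at 0 min. At the same times the sum of 8 lymphocyte markers was 317 to 434, against 250 to 331. For 5 chondrocyte markers it was 95.9 to 256, against 198 to 252. Their part in the results on Tnfrsf11b and Csf1 was not tested.

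RefSeq promoter windows, each from 250 bases before to 50 after the gene's start in build GRCm38.p6, were at hand for Tnfsf11 and Csf1. They are shown because PTH acts on osteoblasts through cAMP, whose usual DNA element is the CRE. Capitals mark the matches to any of 6 motifs on either strand. The Tnfsf11 window lies at chr14:78307994-78308293 and the Csf1 window at chr3:107760420-107760719, both on the minus strand.
Tnfsf11: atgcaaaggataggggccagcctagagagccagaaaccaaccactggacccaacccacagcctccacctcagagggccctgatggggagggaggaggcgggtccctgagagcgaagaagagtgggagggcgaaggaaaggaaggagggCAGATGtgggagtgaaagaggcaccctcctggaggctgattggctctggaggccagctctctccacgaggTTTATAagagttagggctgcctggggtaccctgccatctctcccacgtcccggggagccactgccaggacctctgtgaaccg
Csf1: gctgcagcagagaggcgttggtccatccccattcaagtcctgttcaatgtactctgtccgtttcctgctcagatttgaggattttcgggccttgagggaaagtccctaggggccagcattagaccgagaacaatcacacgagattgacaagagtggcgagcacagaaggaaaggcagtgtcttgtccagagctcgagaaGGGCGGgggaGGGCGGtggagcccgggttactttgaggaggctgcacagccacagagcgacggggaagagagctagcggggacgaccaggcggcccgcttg

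The motifs searched included the CRE, spelled TGACGTCA. Its half-site TGACG is part of every CRE. The site bound by AP-1 was spelled TGANTCA. Also searched were the TATA box as TATAAA, the E-box, a common site of helix-loop-helix factors, as CANNTG and the GC box, bound by Sp1, as GGGCGG. The Tnfsf11 window holds 1 match to TATAAA, which begins 32 bases before the start and reads on the opposite strand, and 1 E-box. The Csf1 window holds 2 GC boxes on its own strand, beginning 51 and 41 bases before the start. Among 32851 windows of the same length, 13.6% hold TATAAA, 72.3% an E-box and 35.7% a GC box. Neither window holds the CRE, found in 1.79% of all windows, its half-site, found in 20.8%, or the AP-1 site, found in 7.81%. These matches are descriptions of the letters only.

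Tnfrsf11b fell within the hour, and the fall was past the threshold at 60 min. Its intensities were 376, 466 and 453 at 0 min, 364, 303 and 425 at 30 min and 237, 107 and 204 at 60 min, for replicates a, b and c. All 60 min arrays lay below all arrays of the other times, while the 30 min and 0 min arrays overlapped. The mean was 183 ± 67.4 at 60 min, which is 42.4% of the 0 min mean of 432 ± 48.9 (SD, n = 3 arrays each). The lowest value, 107, came from 60 min replicate b, and the spread of the 60 min arrays was 36.9% of their mean, against 11.3% at 0 min. RNA of whole cultures was measured, so fewer cells that express the gene and less RNA per cell cannot be told apart.

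The fit gave Tnfrsf11b a log2 fold change of -1.25 at 60 against 0 min, with a standard error (SE) of 0.25, a 95% interval of -1.79 to -0.71 and a limma adjusted p of 0.0144. The change is on the log2(intensity + 11.8) scale, where a value at 60 min was 2.38 times lower than at 0 min. In this comparison 8.73% of the 7884 tested probe sets passed in the same direction and 4.35% were higher. These are 688 falls and 343 rises, against 652 falls and 499 rises after 75th percentile scaling. Without overlap between the arrays, 20.7% were lower and 20% higher, so the separation of Tnfrsf11b is a common one here. Its change was number 214 from the lowest of 7884. The call was lost without any single 0 min array, with limma adjusted p of 0.0561, 0.0655 and 0.0546 without replicates a, b and c. Without 60 min replicate b, the array that correlated least with the rest (median r of 0.938, against 0.954 to 0.967), the log2 fold change was -0.93 with a limma adjusted p of 0.0151.

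At 30 min Tnfrsf11b averaged 364 ± 61.0, against 432 ± 48.9 at 0 min (SD, n = 3 arrays each). The log2 fold change was -0.25 (SE 0.25, limma adjusted p = 0.605), with a 95% interval of -0.79 to 0.30. At this time 0.457% of the tested probe sets were called lower and 0.482% higher. That split of 36 falls and 38 rises became 90 and 52 after quantile normalization, 61 and 40 after 75th percentile scaling and 60 and 32 after cyclic loess. Between 60 and 30 min the log2 fold change was -1.0 (SE 0.25), with a 95% interval of -1.54 to -0.46. The limma adjusted p was 0.38, although the arrays did not overlap and the change was number 17 from the lowest of 7884. Here 0.0254% of the probe sets, which is 2 of them, were called lower and 0.0% higher, and 715 had an unadjusted p under 0.05. Without overlap, 6.49% of the tested probe sets were lower and 5.06% higher.

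**Figure D1:**
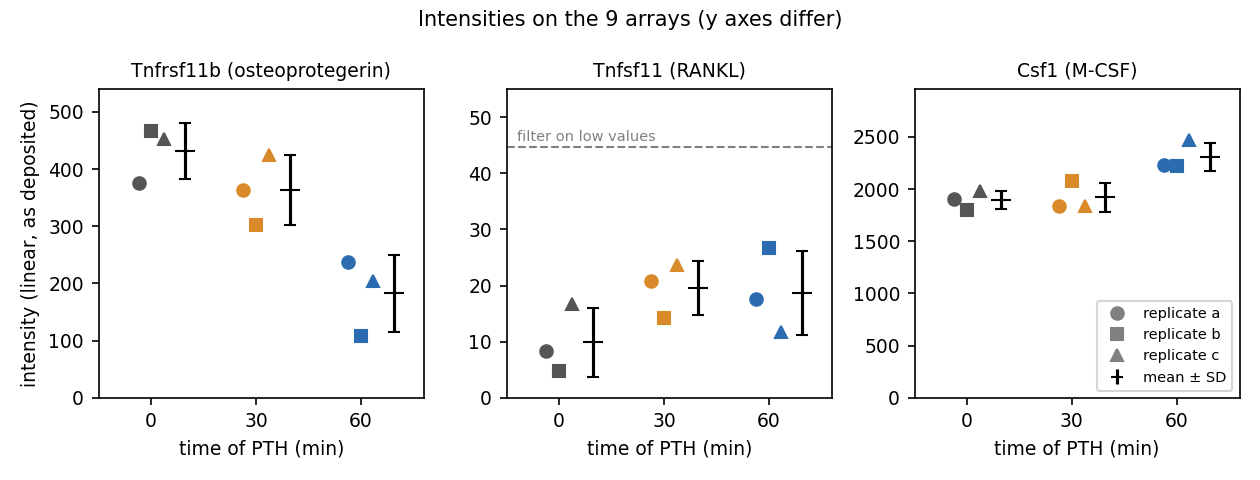
Intensity on the linear scale of the deposited data against the time of PTH for Tnfrsf11b, Tnfsf11 and Csf1, with 1 point per array (circle, square and triangle for replicates a, b and c) and the mean ± SD of 3 arrays beside them; the axes start at 0 and differ between panels. The 60 min arrays of Tnfrsf11b lie between 107 and 237, below all others, those of Csf1 between 2224 and 2466, above all others, and every Tnfsf11 value lies below the dashed filter at 44.7.

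Tnfsf11, the RANKL gene, was too dim to judge. Its probe set gave 8.30, 4.70 and 16.7 at 0 min, 20.8, 14.2 and 23.7 at 30 min and 17.6, 26.7 and 11.7 at 60 min. Every value lay below the filter of 44.7, and the highest, 26.7 on 60 min replicate b, stood at the 33rd percentile of that array's probe sets.
The means were 9.90 ± 6.16 at 0 min, 19.6 ± 4.87 at 30 min and 18.7 ± 7.56 at 60 min (SD, n = 3 arrays each), and the arrays of every pair of times overlapped. On the log2(intensity + 11.8) scale the differences were 0.56 at 30 against 0 min, 0.50 at 60 against 0 min and -0.06 at 60 against 30 min. With an added constant of 1 instead, the first of these was 1.04 and the second 0.93, so their size was set by the constant. In a fit of all probe sets without the filter, 60 against 0 min had a limma adjusted p of 0.293. No direction is given for this gene, and with values this dim that p-value does not show that it was unchanged.

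Csf1, the M-CSF gene, was bright, above the 96th percentile on every array. Its intensities were 1902, 1803 and 1984 at 0 min, 1841, 2079 and 1841 at 30 min and 2235, 2224 and 2466 at 60 min. The 60 min arrays lay above all arrays of the other times, and those of 30 and 0 min overlapped. Of all 7884 tested probe sets, 20% were likewise higher without overlap at 60 against 0 min, and 5.06% at 60 against 30 min. The mean was 2308 ± 137 at 60 min, or 122% of the mean of 1896 ± 90.6 at 0 min (SD, n = 3 arrays each). The log2 fold change of 0.28 (SE 0.09, 95% interval 0.07 to 0.49) did not pass, with a limma adjusted p of 0.0705. That change was number 6259 from the lowest of 7884.

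The value for Csf1 at 60 min moved with the scaling between arrays. The log2 fold change was 0.35 after scaling to the 75th percentile, with a limma adjusted p of 0.046 that passed the threshold, 0.20 after quantile normalization (0.109) and 0.12 after cyclic loess (0.357). Bright probe sets as a whole were higher on these arrays, whose 99th percentiles were 3852 to 4722 at 60 min, against 3474 to 3606 at 0 min. What this shift contributes to the value of Csf1 was not tested beyond these scalings. At 30 min Csf1 averaged 1920.3 ± 138, with a log2 fold change of 0.02 (SE 0.09, 95% interval -0.19 to 0.23, limma adjusted p = 0.939). Between 60 and 30 min it was 0.26 (SE 0.09, limma adjusted p = 0.529).

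**Figure D2:**
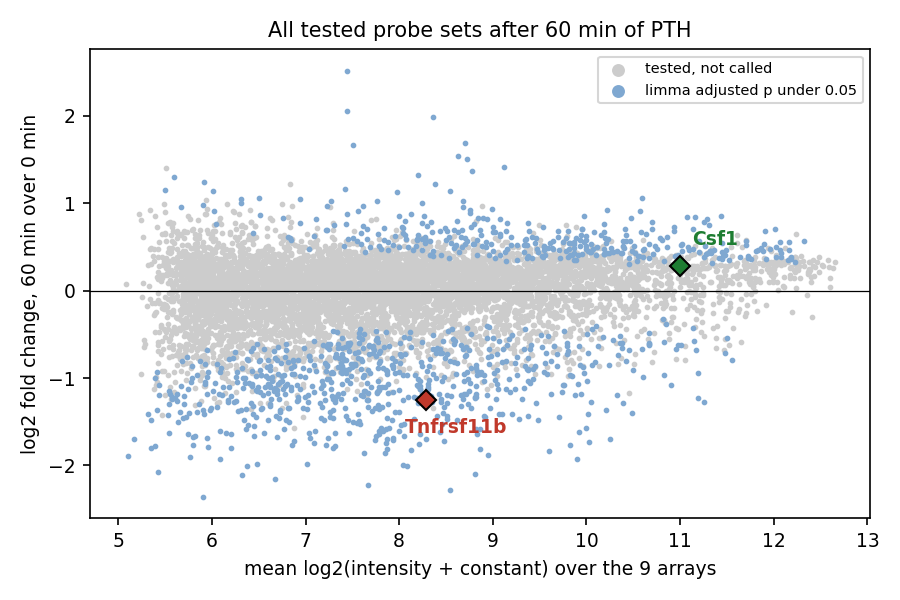
Log2 fold change of 60 over 0 min of PTH against the mean log2(intensity + 11.8) of the 9 arrays for all 7884 tested probe sets, with those called in blue and the rest in grey. Tnfrsf11b, at -1.25, lies among other called falls, and Csf1, at 0.28, lies toward the bright end, in grey.

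Within single arrays the changes of Tnfrsf11b and Csf1 differed at 60 min, chiefly through the fall of Tnfrsf11b. Relative to its 0 min mean, Csf1 stood at 0.24, 0.23 and 0.38 on 60 min replicates a, b and c on the log2 scale. Tnfrsf11b stood at -0.83, -1.89 and -1.03 on the same arrays. The difference, Csf1 minus Tnfrsf11b, was thus 1.07, 2.12 and 1.41 at 60 min, 0.19, 0.62 and -0.02 at 30 min and 0.19, -0.19 and -0.01 at 0 min. The largest, 2.12, came from 60 min replicate b, the array that correlated least with the rest. This difference was not tested, and the rise of Csf1 in it did not pass and moved with the scaling. It describes these 2 probe sets and says nothing of RANKL, which could not be measured.

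**Figure D3:**
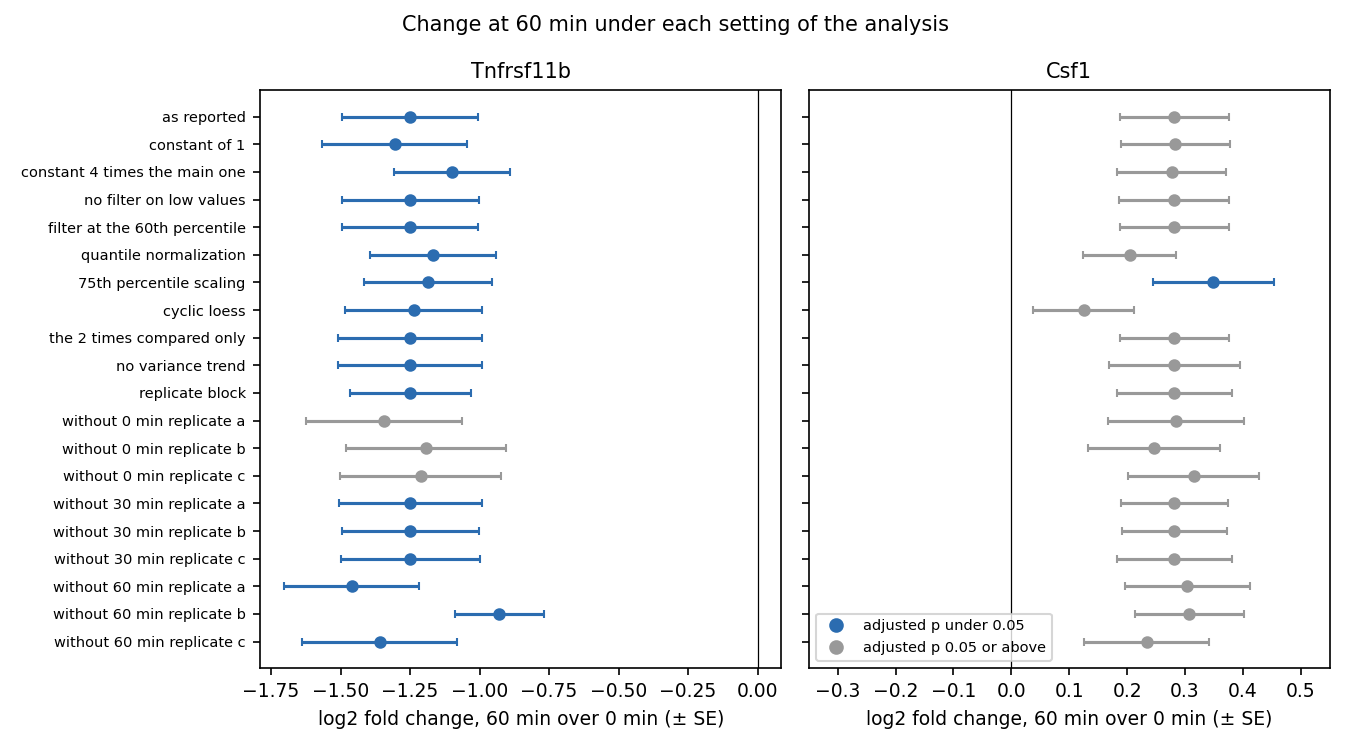
Log2 fold change of 60 over 0 min (points, with bars of 1 SE) for Tnfrsf11b and Csf1 as reported and under each alternative, in blue where the limma adjusted p was under 0.05. Tnfrsf11b ranges from -1.46 to -0.93 and loses its call without any 0 min array, while Csf1 ranges from 0.12 to 0.35 and passes only with 75th percentile scaling.

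The receptors of these ligands were dim. Tnfrsf11a, which encodes RANK, lay between 36.2 and 69.1 over all arrays, with a log2 fold change of -0.24 at 60 against 0 min (limma adjusted p = 0.504). Csf1r, the M-CSF receptor, had 1 probe set too dim to judge, at 9.40 to 51.8, and another at 32.4 to 105. The log2 fold change of the brighter one was -0.43 at 60 against 0 min (limma adjusted p = 0.245). The list of RANK and M-CSF receptor signalling genes held 22 tested genes. At 30 min 0 of them passed, and 7 had an unadjusted p under 0.05, as did 18.2% of the 5936 genes tested.

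At 60 min 1 of these 22 genes rose and 3 fell, where 4.6% of all genes tested rose and 9.1% fell. The median of the list was 0.01, against 0.04 for all genes. Pik3r1, the regulatory subunit of PI 3-kinase, had intensities of 389, 177 and 258 at 60 min and 647, 666 and 667 at 0 min (log2 fold change -1.30, SE 0.24, limma adjusted p = 0.012). Tab2, an adaptor between TRAF6 and the kinase TAK1, fell by 0.85 on the log2 scale, and Mitf, a transcription factor of osteoclasts and pigment cells, by 0.88. Rela, the p65 subunit of NF-kappaB, rose by 0.43 to 3060 ± 110 at 60 min, against 2263 ± 50.6 at 0 min (SD, n = 3 arrays each). Leaving out replicate a or replicate b of 0 min ended each of these calls. That of Tab2 was also lost without 0 min replicate c, and that of Mitf without 30 min replicate c or 60 min replicates b or c and without the filter. On 2 of the 3 arrays at 60 min Mitf lay below the filter.

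Another list was drawn up of factors through which osteoblastic cells may act on osteoclasts, though not every member is known chiefly from osteoblastic cells. Of its 42 genes with a probe set, 26 were tested. At 30 min 0 passed, where 0.573% of all genes rose and 0.489% fell, and 5 had an unadjusted p under 0.05, near the 18.2% of all genes. At 60 min 3 of the 26 passed, near the 13.7% of all genes that did so in either direction, and the median was -0.01. Adam10, a membrane protease able to release RANKL from the cell surface, fell by 1.21 on the log2 scale (SE 0.24, limma adjusted p = 0.0151), with 257, 119 and 202 at 60 min and 467, 445 and 417 at 0 min. Its other probe set stood at -0.99 (limma adjusted p = 0.0137). Sema4d, a semaphorin known chiefly from lymphocytes and osteoclasts, had 41.6, 69.9 and 46.6 at 60 min and 9.20, 31.3 and 13.7 at 0 min. All 3 arrays at 0 min lay below the filter, and only arrays with PTH lay above it. The probe set was thus tested only because it was high with PTH. Its call, counted among the 3, therefore gives no support for a rise. Its log2 difference also depended on the added constant. It was 1.15 as reported (SE 0.34, limma adjusted p = 0.0479), 1.63 with a constant of 1 and 0.62 with the higher constant. Anxa2, the membrane-binding annexin A2, rose by 0.36. The brightest member, Ccl2, a chemokine for osteoclast precursors, stood at 0.01 (limma adjusted p = 0.962).

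Leaving out single arrays ended these calls. That of Adam10 needed both replicate a and replicate b of 0 min. That of Anxa2 was lost without any 0 min array, 60 min replicates b or c, the filter or the variance trend, and after quantile normalization or cyclic loess. Of the 9 fits with 1 array left out, Sema4d lost its call in 7, those without any array but 30 min replicate a or 60 min replicate a. It was also lost with a constant of 1, without the filter and in a fit of these times alone.

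Among 37 tested receptors and regulators upstream of these 3 genes, 4 rose and 0 fell at 30 min. Of all genes tested, 0.573% rose and 0.489% fell. An unadjusted p under 0.05 was found for 11 of the 37, beside 18.2% of all genes. The list was chosen with earlier results of these data known. Fos, an AP-1 subunit, rose by 4.05 on the log2 scale, Nr4a1, a nuclear receptor induced by cAMP, by 2.55, Junb by 1.56 and Fosl1 by 1.03. Fos lay below the filter on all 3 arrays at 0 min and Nr4a1 on 2, so both were tested only because they were high with PTH. Their calls under the filter, counted among the rises at both times, therefore give no support for a rise by themselves. In the fit without the filter both were also called at both times. The size of their rises also depended on the added constant. At 30 min it ran from 3.25 to 4.45 for Fos and from 1.97 to 2.84 for Nr4a1 over the constants tried, and at 60 min from 1.45 to 2.39 and from 1.93 to 2.81. Their relatives Jun (0.59), Jund (0.10), Fosl2 (-0.05) and Nr4a2 (0.12) did not pass at 30 min, with limma adjusted p of 0.152, 0.654, 0.893 and 0.834. At 60 min 8 rose and 3 fell, where 4.6% of all genes tested rose and 9.1% fell. The median of the list was -0.04, against 0.04 for all genes. An unadjusted p under 0.05 was found for 18, beside 34.2% of all genes. Jun and Jund were among the rises, and Fosl2 (-0.34) and Nr4a2 (0.64) did not pass (limma adjusted p of 0.178 and 0.131). The calls of Jun and Jund depended on single arrays. With 1 array left out, 5 of the 9 fits ended that of Jund and 4 that of Jun. The fits lacking a 0 min array were all among these. Jund also fell short after quantile normalization or cyclic loess, with no filter and with no variance trend. The same 4 genes led, with Nr4a1 at 2.52, Fos at 2.06, Junb at 1.42 and Fosl1 at 1.33. Limma adjusted p lay between 3.44e-06 and 0.0193 at 30 min and between 0.000803 and 0.00299 at 60 min. The call of Fosl1 at 30 min was lost without replicate a or b of 0 min and without replicate b or c of 30 min. Fos was also the 1 gene of the list called at 60 against 30 min, by -1.99 (limma adjusted p = 0.00475), and this was lost without 30 min replicate b.

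Among the other TNF ligands and receptors, 11 of 25 with a probe set were tested. At 60 min 1 passed, Fas, the death receptor, beside 13.7% of all genes. At 30 min 0 passed, and 2 had an unadjusted p under 0.05, near the 18.2% of all genes. Fas fell by 0.80 (SE 0.23, limma adjusted p = 0.0435), with 76.9, 38.2 and 72.9 at 60 min and 121, 125 and 97.7 at 0 min. The call was lost without any 0 min array, without replicate b or c of either later time, without the filter, in a fit of these times alone and after quantile normalization or cyclic loess. The brightest member, the TNF receptor Tnfrsf1a, stood at 0.15 (limma adjusted p = 0.575), and the median of the list was 0.15. Tnfrsf11b, not counted here, had a lower log2 fold change than each of these 11 genes.

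**Figure D4:**
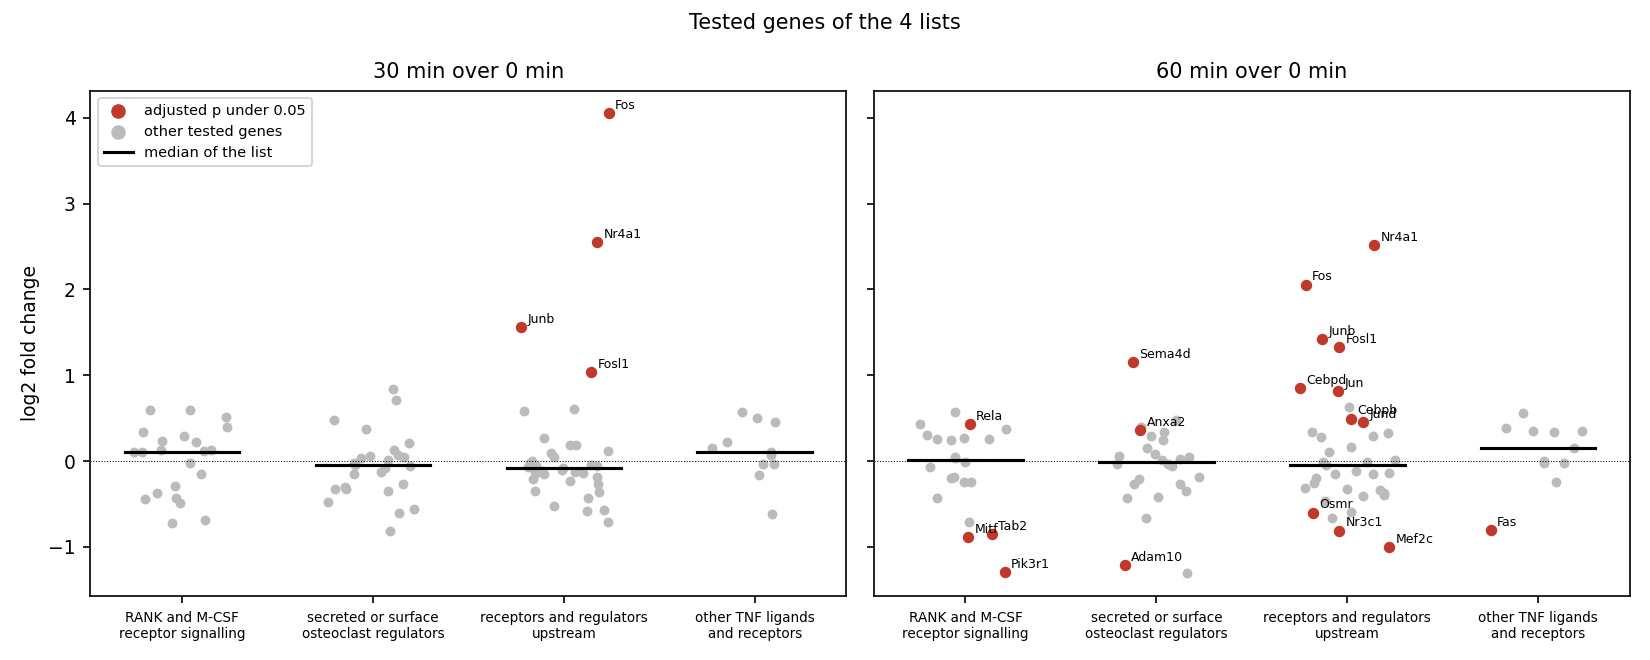
Log2 fold changes of the tested genes of 4 lists at 30 over 0 min (left) and 60 over 0 min (right), with called genes in red and named, other genes in grey and the median of each list as a bar. At 30 min the called genes are 4 rises in the upstream list, led by Fos at 4.05, and at 60 min all lists hold called genes while the medians stay between -0.04 and 0.15.

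The probe sets whose pattern over the 9 arrays was closest to that of Tnfrsf11b were those of Tm9sf2, Zfand5, 4930453N24Rik, Ap3m1 and Slc35a1, with Pearson correlations of 0.97 to 0.98. Tm9sf2, of a family of membrane proteins of the endosome and Golgi, had means of 462 at 0 min, 440 at 30 min and 343 at 60 min. Zfand5, a zinc finger protein of proteasomal breakdown, had 1084, 958 and 668 at the same times. All 5 were lowest on 60 min replicate b, as Tnfrsf11b was, the array that correlated least with the rest. They were picked for their likeness over these same arrays, so the shared low is no separate result. Of 7113 probe sets compared, 169 correlated with Tnfrsf11b above 0.9. For Csf1 only 10 did, led by Ap2m1 (0.95), Necap2 (0.94), Klc4 (0.94), Cln6 (0.91) and Cdk16 (0.91). Ap2m1, a clathrin adaptor subunit, had means of 2279 at 0 min, 2379 at 30 min and 3117 at 60 min. These correlations describe 9 arrays that share their times and their scaling.

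**Figure D5:**
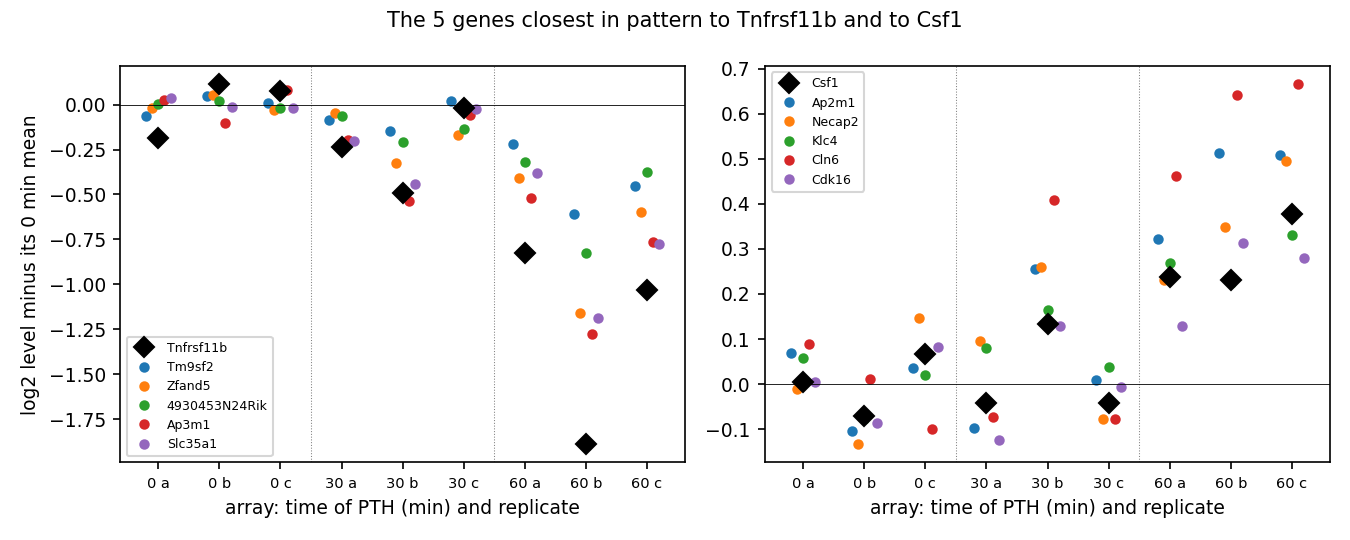
Log2(intensity + 11.8) minus the 0 min mean on each of the 9 arrays for Tnfrsf11b (left) and Csf1 (right), as black diamonds, with the 5 probe sets of highest Pearson correlation to each in colour. Tnfrsf11b falls furthest of its panel at -1.89 on 60 min replicate b, while on the 60 min arrays Csf1 lies between 0.23 and 0.38.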

How the data were processed

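RNA of OB-6 cells was measured on 9 arrays, 3 at each of 0, 30 and 60 min of PTH, grouped by the labels. The deposited table gives a linear intensity for each of 12488 probe sets on every array, from 0.1 to 8605. How the authors summarised and scaled these values is not given in the sources used here. Means with 2% trimmed off each end lay between 249.5 and 250.0, so the table was used as deposited. It carries no detection calls, so dimness was judged by intensity alone, and the number of arrays limits the precision. Probe sets were named from the platform annotation, with symbols looked up by Entrez identifier in the RefSeq table of GRCm38.p6.

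Intensities were converted to log2(intensity + 11.8), where 11.8 is the 20th percentile of the table. Testing required 3 or more arrays above the 40th percentile, 44.7, and other probe sets were called too dim to judge. A limma 3.58.1 model (R 4.3.3) with 3 group means and a variance trend covered all 7884 tested probe sets, and p-values were adjusted by Benjamini-Hochberg with a threshold of 0.05. With 3 arrays against 3, an exact permutation test cannot go below 0.1. On simulated data the fit called 18% of log2 changes of 0.5, 66% of changes of 1 and 96.4% of changes of 2. The simulated noise was independent between arrays and had no shift in scaling, unlike the arrays here.

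The members, the 4 gene lists (176 names, 135 with a probe set) and the marker lists were chosen with earlier results of these data known. A listed gene stands as its brightest tested probe set. From each list up to 4 called members with the largest change were named, or the 2 brightest where none passed, and for each tested member the 5 probe sets with the highest correlation. Motifs were counted in RefSeq promoter windows. Alternatives were other constants, filters and scalings, a fit of the compared times alone, no variance trend, a block for the replicate letter, and leaving out arrays singly. Figures were drawn with matplotlib 3.10.9.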

Additional observations from a re-analysis of the deposited data

How the results depend on the processing

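Tnfrsf11b at 60 against 0 min kept its direction in 19 of 19 alternatives and its call in 16. The 3 that ended the call left out a 0 min array, and with 1 array left out its log2 fold change ran from -1.46 to -0.93. Its changes at 30 against 0 min (-0.36 to -0.12) and at 60 against 30 min (-1.21 to -0.68) passed under none. Csf1 at 60 against 0 min passed only with 75th percentile scaling, at 0.35, and ran from 0.23 to 0.31 with 1 array left out. Its small difference at 30 min turned to -0.033 under cyclic loess and ran from -0.041 to 0.050 with 1 array left out, being below 0 without 0 min replicate b or 30 min replicate b. The cause of these turns was not tested. Tnfsf11 stood at 1.04 and 0.93 at 30 and 60 against 0 min with a constant of 1, and at 0.38 to 0.77 and 0.31 to 0.71 with 1 array left out.

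The replicate letters were not taken as pairs, since not every same-letter correlation of deviations exceeded 0.1. These ran from -0.13 to 0.30 over 9 pairs of arrays, against -0.27 to 0.18 over 18 pairs of different letters, and were highest between 60 and 30 min for replicates a (0.30) and b (0.25). With the letter as a replicate block, 259 probe sets were called at 30 against 0 min, 1446 at 60 against 0 min and 1 at 60 against 30 min. The adjusted p was then 0.0065 for Tnfrsf11b and 0.0772 for Csf1 at 60 against 0 min, and 5 secreted or surface factors were called at 60 min and 1 at 30 min.

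Calls over all probe sets at 30 against 0 min numbered 74, and 115 with the higher constant, 39 without a filter, 142 after quantile normalization, 389 in a fit of these times alone and 40 without the variance trend. With 1 array left out they ran from 16 to 557, with 16, 19 and 23 without replicates a, b and c of 0 min, 307, 23 and 17 without those of 30 min and 557 and 37 without replicates b and c of 60 min. At 60 against 0 min they numbered 1031, and 652 without a filter. They were 77, 107 and 259 without replicates a, b and c of 0 min, 1584, 528 and 646 without those of 60 min and 692 without 30 min replicate c. At 60 against 30 min they numbered 2, 1 in a fit of these times alone and 0 to 5 with 1 array left out.

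List counts moved as well. At 60 min the secreted or surface factors had 1 call without the filter and 0 to 7 with 1 array left out, receptor signalling 0 to 7, upstream regulators 4 to 14, and other TNF genes 0 to 2. Without replicate a or replicate b of 0 min these lists had 0, 0, 4 and 0 calls, and without 60 min replicate a the first 3 had their highest counts. The TNF genes had 0 without the filter, after cyclic loess and in a fit of these times alone, and 2 after 75th percentile scaling. At 30 min the fit of these times alone called 2 receptor signalling genes and 1 secreted or surface factor, and with 1 array left out the counts ran from 0 to 2, 0 to 1, 3 to 8 for upstream regulators and 0 to 1 for TNF genes, with each highest count in the fit without 60 min replicate b.

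Brightness sets what can be judged. The RANKL probe set lay below the filter on every array, and without detection calls no lower limit can be given for it. All comparisons with 0 min share the same 3 basal arrays.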

Other observations

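Receptors for the cytokines that signal through gp130, which act on osteoblasts to raise RANKL, were looked at together after their values had been seen. Osmr, the oncostatin M receptor, had 882, 589 and 846 at 60 min and 1184, 1181 and 1109 at 0 min, and fell by 0.60 on the log2 scale (SE 0.15, limma adjusted p = 0.0309). This call was lost without any 0 min array and without the variance trend. Il6st, which encodes gp130 itself, stood at -0.40 (limma adjusted p = 0.0716), and its other probe set at -0.49 (0.06). Lifr, the LIF receptor, stood at -0.59 by its brightest probe set (0.078) and at 0.11 by a dimmer one (0.738). Il6ra, the IL-6 receptor, stood at -0.41 (0.316). Of these receptor genes Osmr alone passed, and under the 3 other scalings the brightest probe set of each of the 4 genes remained below 0.

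In the list of upstream regulators, Mef2c and the glucocorticoid receptor gene Nr3c1 were also called lower at 60 min, by 1.01 and 0.81 on the log2 scale. Their limma adjusted p were 0.0472 and 0.0352. The fall of Mef2c is that of its brightest tested probe set, and its 3 other probe sets are not reported here. Of the 9 fits with 1 array left out, 7 ended the call of Mef2c and 6 that of Nr3c1, among them each fit without a 0 min array. Quantile normalization and the lack of a filter ended both, and Nr3c1 lay below the filter on all 3 arrays at 60 min. The call of Mef2c also ended with a constant of 1, after cyclic loess, in a fit of these times alone and without the variance trend. The control probe set for mouse Fas, which was not tested, had 134, 90.9 and 139 at 60 min, against 198, 194 and 161 at 0 min.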
